A study of Mus musculus with 2 samples.

Results

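The mouse mitochondrial genome carries 37 genes in GENCODE release M21: 13 for mRNAs, 2 for rRNAs and 22 for tRNAs. They were taken as every gene whose name starts with mt-, out of 55450 genes in a table made directly from the reads, and all 37 are also among the 55536 genes of a second table made from an alignment to the transcriptome. The libraries hold paired-end reads of polyadenylated RNA from G1E-ER4 cells, a male mouse erythroid line that grew out of Gata1-null cells and in which GATA1 function returns through a fusion protein that estradiol switches on. Both libraries come from cells that received 17beta-estradiol (10 nM, 24 h), and the labels call them biological replicates 1 and 2 of a single group. Both carry the same biosample record, so their spread may be technical in part or in whole, and all cells belong to 1 immortalized line. No untreated sample was analysed here, so every value is a level in treated cells and no test between conditions could be made.

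Mitochondrial DNA is a small circle that is copied, transcribed and translated inside the organelle. Both strands are read as long precursors. The tRNAs lie between most of the mRNAs and rRNAs, and cutting them out frees the other RNAs, an arrangement known as tRNA punctuation. Each of the 13 mRNAs encodes a core subunit of a respiratory complex: complex I (NADH dehydrogenase), complex III (cytochrome bc1), complex IV (cytochrome c oxidase) or ATP synthase. In mammals the freed mRNAs have few or no untranslated bases and receive short poly(A) tails in the organelle. Developing red cells need mitochondria for heme and iron-sulfur cluster synthesis and remove them late in maturation.

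The 3′ ends show how closely the genes are packed and why the tail is part of the coding sequence. Of the 13 mRNAs, 8 end in TAA, 2 in TAG and 3 in a single T, which only the added tail completes to a stop codon. The last 30 annotated bases of those 3 are printed with the final T in capitals, above mt-Co1, where the capitals mark a full stop codon. The sequences are GENCODE M21 transcripts on GRCm38, all from the plus strand:
mt-Co3, chrM:9361-9390: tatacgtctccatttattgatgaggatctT
mt-Nd4, chrM:11515-11544: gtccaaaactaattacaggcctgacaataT
mt-Cytb, chrM:15259-15288: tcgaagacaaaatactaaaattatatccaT
mt-Co1, chrM:6843-6872: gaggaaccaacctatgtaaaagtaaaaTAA

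Neighbouring genes also share bases. The longest overlap is the 43 bases that close mt-Atp8 and open mt-Atp6, which are read in different frames from 1 bicistronic mRNA. Capitals mark the start codon of mt-Atp6 and the stop codon of mt-Atp8:
mt-Atp8 and mt-Atp6, chrM:7927-7969, plus strand: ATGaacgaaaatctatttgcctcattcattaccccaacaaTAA
The pair mt-Nd4l and mt-Nd4 shares 7 bases, and mt-Nd5 and mt-Nd6 share 14 on opposite strands. Reads from such overlaps cannot be given to 1 gene by position alone, and use of strand in the counting is nowhere stated in the labels or file headers.

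A second kind of sharing matters more for the values below. A stretch of 4663 bases on the minus strand of chromosome 1 (chr1:24611535-24616197) holds 7 annotated genes that repeat the mitochondrial order from the end of mt-Co1 to the first part of mt-Nd4. Such nuclear insertions of mitochondrial DNA occur in many mammals. A search of all M21 transcripts found that 5 of these 7 genes equal the mitochondrial sequence base for base over the matched part. Gm28438, the copy of mt-Nd3, matches over 345 bases at 99.7% identity, and 1 substitution, T3C, counted from 1 at the 5′ end of mt-Nd3, separates them. It lies in the start codon and is in capitals:
mt-Nd3, chrM:9459-9488, plus strand: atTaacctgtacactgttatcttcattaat
Gm28438, chr1:24613090-24613119, minus strand: atCaacctgtacactgttatcttcattaat
Gm29216, which repeats the last part of mt-Co1, also differs by 1 substitution in the matched part, A1066T, counted from the 5′ end of mt-Co1. The other copies are Gm28661 (mt-Co2), Gm10925 (mt-Atp6), Gm28437 (mt-Co3), Gm10222 (mt-Nd4l) and Gm28439, which covers 876 bases of mt-Nd4. For mt-Nd1, mt-Nd2, mt-Atp8, mt-Nd5, mt-Nd6, mt-Cytb and both rRNAs the search found no annotated copy at 99% identity or more. Gm10925 holds the 43 bases that mt-Atp8 shares with mt-Atp6. The order of the insertion places the rest of mt-Atp8 between Gm10925, which ends at chr1:24614651, and Gm28661, which starts at chr1:24614885. No annotated copy was found there, but only transcripts were searched. Whether this gap holds an unannotated copy of mt-Atp8 was not tested. Below, mt-Atp8 therefore counts as without an annotated copy only.

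Depth differed between the libraries and between the tables. The alignment-based table sums to 71485617 expected counts in replicate 1 and 14121747 in replicate 2, and the read-based table to 99236349 and 31979129 estimated counts. TPM divides each count by the effective length of its gene and scales the results to 1 fixed total per library. Short entries of 57 bases, Gm24245, Gm24270 and Gm23935, took 18.7% of read-based TPM in replicate 1 and 72.6% in replicate 2, with 0.263% and 1.82% of the counts. Read-based TPM of replicate 2 are therefore low for most genes, and CPM, counts scaled to the same library total, are used for most read-based comparisons of the replicates. The 7 erythroid marker genes lay between 304 and 97719 TPM in replicate 1 and between 69.0 and 34786 TPM in replicate 2 in the alignment-based table. Of 5 granulocyte and monocyte, 3 lymphoid and 3 stromal markers, 0 reached 1 TPM there, and Csf1r, Itgam, Ly6g, Dcn and Pecam1 were at 0 in both replicates. By reads Pecam1 had 0.770 and 2.86 TPM and Csf1r 0.241 and 0.482, and Ly6g and Dcn were at 0.

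Mitochondrial RNA was a small part of both libraries. In the alignment-based table the 37 genes made up 0.316% of TPM in replicate 1 and 0.228% in replicate 2, which average 0.272% ± 0.0626 (SD, n = 2). They held 185364 of the counts in replicate 1, or 0.259% (95% Wilson interval 0.258 to 0.260%), and 12967 in replicate 2, or 0.0918% (0.0903 to 0.0934%). The read-based table gave a larger share of the counts: 0.625% (0.623 to 0.626%) in replicate 1 and 0.801% (0.797 to 0.804%) in replicate 2. These intervals cover counting error only. Replicate 1 thus had the larger share of counts by alignment and replicate 2 by reads, but the read-based order rests on mt-Nd2: the other 36 genes summed to 5068 CPM in replicate 1 and 3354 in replicate 2. By read-based TPM the share was 0.842% in replicate 1 and 0.354% in replicate 2. Within a bulk sample, fewer mitochondria, fewer transcripts in each and a different yield of the poly(A) selection cannot be told apart. Nearly all mitochondrial counts were from mRNAs. The 13 mRNAs held 177322 and 12833 alignment-based counts, the 2 rRNAs 8042 and 134, and the 22 tRNAs 0 and 0. The tRNAs had an effective length of 0 by alignment, and the libraries were selected for poly(A). These counts therefore do not give the make-up of mitochondrial RNA in the cells. At 1 TPM or more in both replicates, 11 of the 37 genes were detected by alignment (9 mRNAs, 2 rRNAs, 0 tRNAs) and 20 by reads (13 mRNAs, 2 rRNAs, 5 tRNAs).

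The rRNAs, mt-Rnr1 of the small and mt-Rnr2 of the large mitochondrial ribosomal subunit, lie first on the transcript and are the most abundant mitochondrial RNAs in whole cells, much of which poly(A) selection leaves behind. Here mt-Rnr1 (chrM:70-1024, 955 bases) had 62.0 TPM in replicate 1 and 8.73 in replicate 2 by alignment, and 74.7 and 21.1 TPM by reads. The longer mt-Rnr2 (chrM:1094-2675, 1582 bases) had 42.8 and 2.51 TPM by alignment, and 60.8 and 22.1 TPM by reads. Both stood well below mt-Cytb, an mRNA without an annotated close nuclear copy. Their median was 0.0832 of its TPM in replicate 1 and 0.0340 in replicate 2 by alignment, and 0.0968 and 0.146 by reads. The ratio of mt-Rnr1 to mt-Rnr2 was 1.45 in replicate 1 and 3.48 in replicate 2 by alignment (2.46 ± 1.43, SD, n = 2), and 1.23 and 0.954 by reads. The alignment-based ratio of replicate 2 rests on 89 and 45 counts, while the read-based table gives these genes 1824 and 3306 counts in the same library.

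Complex I takes 7 of the mRNAs. Among them mt-Nd2 (chrM:3914-4951), a subunit of the membrane arm, was the one that stood higher in replicate 2 in both tables. By alignment it had 286 TPM in replicate 1 and 551 in replicate 2, and by reads 1034 and 1565 TPM. Its neighbour mt-Nd1 (chrM:2751-3707), the subunit at the joint of the membrane and the peripheral arm, had 364 and 80.9 TPM by alignment and 566 and 155 by reads. The ratio of mt-Nd2 to mt-Nd1 was thus 0.787 in replicate 1 and 6.82 in replicate 2 by alignment, and 1.83 and 10.1 by reads. Both tables place mt-Nd2 far higher over mt-Nd1 in replicate 2, and neither gene has a near-identical annotated copy. In replicate 2, mt-Nd2 held 48.2% of all mitochondrial mRNA counts by alignment and 59.3% by reads, against 10.4% and 19.5% in replicate 1.

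The proton-pumping subunit mt-Nd5 (chrM:11742-13565), the longest of the mRNAs at 1824 bases, had 270 TPM in replicate 1 and 74.3 in replicate 2 by alignment, and 238 and 74.5 by reads. Its counts differed more: 32669 and 1554 by alignment, and 50252 and 12974 by reads, so the like TPM of replicate 2 stand beside a read-based CPM 3.69 times the alignment-based one. Its partner mt-Nd4 (chrM:10167-11544) had 172 and 19.6 TPM by alignment and 327 and 87.8 by reads. In the same bicistronic mRNA, mt-Nd4l (chrM:9877-10173) had 108 TPM in replicate 1 and 0 in replicate 2 by alignment, and 770 and 145 by reads. The small subunit mt-Nd3 (chrM:9459-9806) had 30.3 and 0 TPM by alignment and 3.21 and 2.76 by reads. A floor of 3 counts corresponds to 1.45 TPM for mt-Nd4l and 1.11 TPM for mt-Nd3 in replicate 2 by alignment, and both genes have a near-identical copy, so a 0 there is not absence.

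mt-Nd6 (chrM:13552-14070) is the only mRNA on the minus strand, and unlike the others its counterpart in human cells is known to lack a stable poly(A) tail. Its level was low in both tables and similar between replicates by alignment: 4.85 and 3.74 TPM, on 129 and 18 counts. By reads it had 17.7 and 7.28 TPM, on 860 and 311 counts. Its read-based CPM, 8.67 and 9.72, was also similar between replicates. The authors' posterior intervals for the alignment-based TPM, 4 to 5.65 in replicate 1 and 2.13 to 5.40 in replicate 2, overlap. Opposite its end, mt-Nd5 stood 55.6 times higher in replicate 1 and 19.9 times higher in replicate 2 by alignment, and 13.4 and 10.2 times by reads.

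The single mitochondrial subunit of complex III, cytochrome b, is encoded by mt-Cytb (chrM:14145-15288). It had 629 TPM in replicate 1 and 165 in replicate 2 by alignment, and 700 and 147 by reads, on 88546 and 15557 read-based counts. Its read-based CPM was 1.41 times the alignment-based one in replicate 1 and 3.32 times in replicate 2.

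Complex IV has 3 mitochondrial subunits, which form its catalytic core. mt-Co1 (chrM:5328-6872), which holds the oxygen-reducing center, had 301 TPM in replicate 1 and 28.9 in replicate 2 by alignment, and 464 and 126 by reads. The receiver of electrons from cytochrome c, mt-Co2 (chrM:7013-7696), had 18.9 and 24.7 TPM by alignment and 53.7 and 2.72 by reads. mt-Co3 (chrM:8607-9390) was almost empty by alignment, at 0.250 and 0.0800 TPM, but had 233 and 16.4 TPM by reads. By these TPM, which for alignment are the maximum likelihood values, mt-Co2 was higher in replicate 2 by alignment and lower by reads. The authors' posterior mean for mt-Co2 by alignment went the other way. It was 114 TPM in replicate 1 (interval 52.8 to 174) and 11.5 in replicate 2 (1.20 to 22.6). The direction by alignment thus depended on the estimate. mt-Co3 was lower in replicate 2 in both tables, at levels far apart. By alignment this direction rests on 11.5 and 0.610 counts. The authors' intervals for mt-Co3, 31.5 to 176 TPM in replicate 1 and 0.000229 to 36.5 in replicate 2, overlap. The copies of mt-Co2 and mt-Co3, Gm28661 and Gm28437, are identical to them over 681 and 783 bases.

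ATP synthase takes its proton-channel subunit from mt-Atp6 (chrM:7927-8607) and a small peripheral subunit from mt-Atp8 (chrM:7766-7969). mt-Atp8 had the highest TPM of all 13 mRNAs in 3 of the 4 columns: 634 and 1318 by alignment, and 2474 and 865 by reads, where mt-Nd2 passed it in replicate 2. mt-Atp6 had 240 TPM in replicate 1 and 0 in replicate 2 by alignment, and 1305 and 276 by reads. The high TPM of mt-Atp8 goes with a short effective length, the number of positions at which a fragment can start: 53.7 and 74.3 bases by alignment, for a gene of 204. Per kilobase of annotated length the order of the pair was not the same everywhere, with 169 CPM per kb for mt-Atp8 and 189 for mt-Atp6 in replicate 1 by alignment, and 1216 and 1328 by reads. In replicate 2 the read-based values were 1453 CPM per kb for mt-Atp8 and 747 for mt-Atp6.

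**Figure D1:**
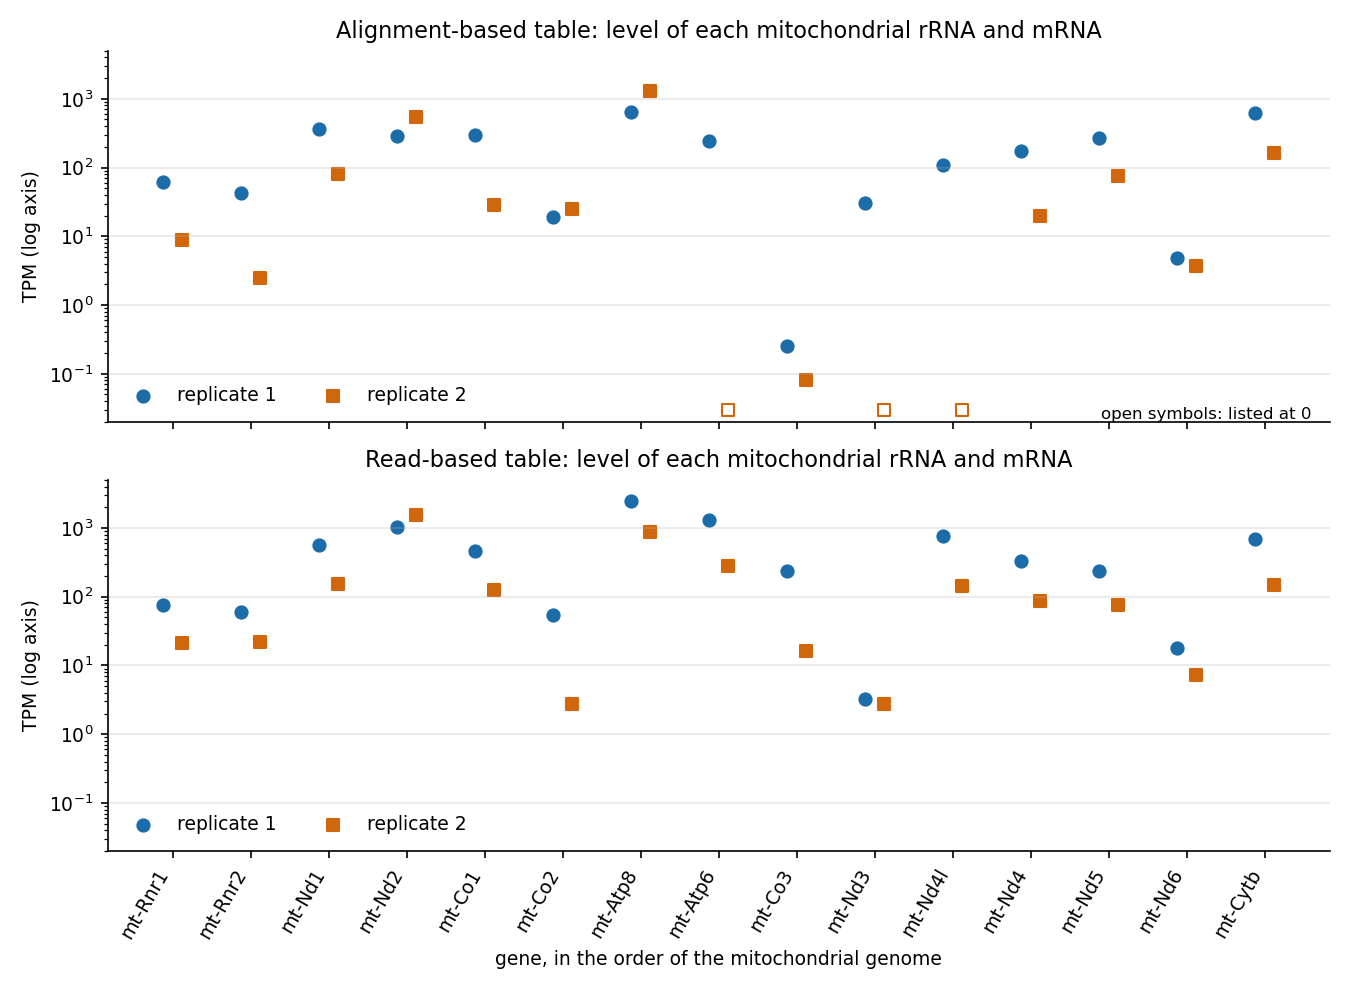
TPM of the 2 rRNAs and 13 mRNAs on a log axis, in genome order, in replicate 1 (circles) and replicate 2 (squares), by alignment (top) and by reads (bottom); open symbols are genes listed at 0. mt-Nd2 is higher in replicate 2 in both panels, with CPM ratios of 1.70 and 3.94, while mt-Nd1, mt-Co1, mt-Nd4, mt-Nd5 and mt-Cytb are lower in both, by CPM too, and mt-Co3 is at 0.250 TPM by alignment and 233 TPM by reads in replicate 1.

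The tRNAs, 59 to 75 bases long, are far shorter than the fragments, for which the labels give a size range over 175. By alignment all 22 had an effective length of 0 and no counts. By reads 18 had at least 1 estimated count in either replicate, 184 counts in all in replicate 1 and 33 in replicate 2, and 15 reached 1 TPM in either. mt-Tm, the methionine tRNA, had the most in replicate 1, with 45 counts (24.6 TPM), and 4 counts (2.67 TPM) in replicate 2. It lies next to mt-Nd2 (chrM:3845-3913, plus strand), and its anticodon is in capitals:
mt-Tm: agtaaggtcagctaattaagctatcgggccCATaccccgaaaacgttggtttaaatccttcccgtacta
mt-Ts1, a serine tRNA whose gene overlaps the end of mt-Co1 by 3 bases on the other strand, had 35 and 2 counts (19.1 and 1.34 TPM). mt-Te, the glutamate tRNA, had 22 and 0 counts (12 and 0 TPM), and mt-Tp, the proline tRNA, had 20 and 13 counts (11.6 and 9.50 TPM). mt-Tl1, a leucine tRNA, had 18 counts and 1 count, and mt-Tr, the arginine tRNA, 10 and 0. mt-Tq, mt-Tw, mt-Tk, mt-Tg and mt-Tt had 5 or 6 counts in replicate 1 and at most 4 in replicate 2, and mt-Tn and mt-Th had 2 and 0. Of those at 1 TPM, mt-Ts2 and mt-Tl2 were seen in replicate 2 alone, with 1 and 2 counts. The other 7 stayed below 1 TPM, and 4 had no counts. With read-based effective lengths of 8.80 to 18.3 bases, 1 count of mt-Ts2 was worth 1.13 TPM, so a tRNA passes 1 TPM on very few reads. The 14 tRNAs on the plus strand held 98 counts in replicate 1 and 17 in replicate 2, and the 8 on the minus strand 86 and 16.

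Ranked by TPM, the 13 mRNAs kept much of their order between the libraries within a table, with a Spearman rho of 0.757 by alignment and 0.945 by reads over 13 genes. Between the tables the ranks differed more: rho was 0.703 in replicate 1 and 0.503 in replicate 2. These are descriptions over genes that share libraries, and no p is given. In the read-based table mt-Atp8 ranked 28 of all genes in replicate 1 and 40 in replicate 2, mt-Nd2 91 and 21, mt-Atp6 70 and 139, and mt-Cytb 131 and 261. By alignment the ranks were 181 and 104 for mt-Atp8, 428 and 253 for mt-Nd2, 513 and 13401 for mt-Atp6, where it is at 0 in replicate 2, and 184 and 789 for mt-Cytb. Within each library the read-based TPM of mt-Nd6 (17.7 in replicate 1, 7.28 in replicate 2) lay below those of mt-Nd5 (238 and 74.5), mt-Nd4 (327 and 87.8), mt-Co1 (464 and 126) and mt-Nd1 (566 and 155), and these 4 stood in the same order in both. mt-Nd3 had 2.76 to 3.21 TPM by reads, where its copy took most of the counts. Mean TPM went with neither length (rho 0.253 by alignment, -0.0824 by reads), GC content (-0.0824 and 0.0714) nor start position (-0.297 and -0.324) to a marked degree. GC content spans 31.9% in mt-Atp8 to 41.1% in mt-Nd4l.

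The nuclear copies held as many counts as some of the mitochondrial genes. Together the 7 copies on chromosome 1 had 68133 counts in replicate 1 and 1648 in replicate 2 by alignment, and 164444 and 55946 by reads. Reads that match both loci base for base cannot be told apart by sequence, so each table divides them by its own estimate. For mt-Co2 the mitochondrial gene received 4.03% of the 18094 counts of the pair in replicate 1 and 100% of 169 in replicate 2 by alignment, and 5.42% of 68553 and 3.11% of 5192 by reads. For mt-Co3 it received 0.0811% of 14126 and 0.160% of 382 counts by alignment, and 66.5% of 28645 and 22.6% of 5034 by reads. The split of 1 pair thus ran from almost none to most, in tables of the same libraries. mt-Atp6 received 38.6% and 0% by alignment and 74.7% and 30.9% by reads, and mt-Nd4l 12.3% and 0% by alignment and 100% and 48.7% by reads. mt-Co1 was the most even, at 68.6% and 67.3% by alignment and 68.7% and 81.7% by reads; its copy covers only the last part of the gene. mt-Nd4, matched by its copy over 876 of 1378 bases, kept 100% in both replicates by alignment, and 73.5% and 100% by reads.

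The pair of mt-Nd3 and Gm28438 is the one with a difference near the start. By alignment all 431 counts of replicate 1 went to mt-Nd3 and 0 to the copy, and replicate 2 had none for either. By reads 87.4 counts went to mt-Nd3 and 3886 to Gm28438 in replicate 1, and 70.2 and 3350 in replicate 2. The sum of a pair does not depend on this split, but it too was lower by alignment: 431 against 3973 counts in replicate 1. A search at 90% identity found 9 further nuclear copies, and each of these had at most 3.12 counts by alignment and 91.5 by reads.

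**Figure D2:**
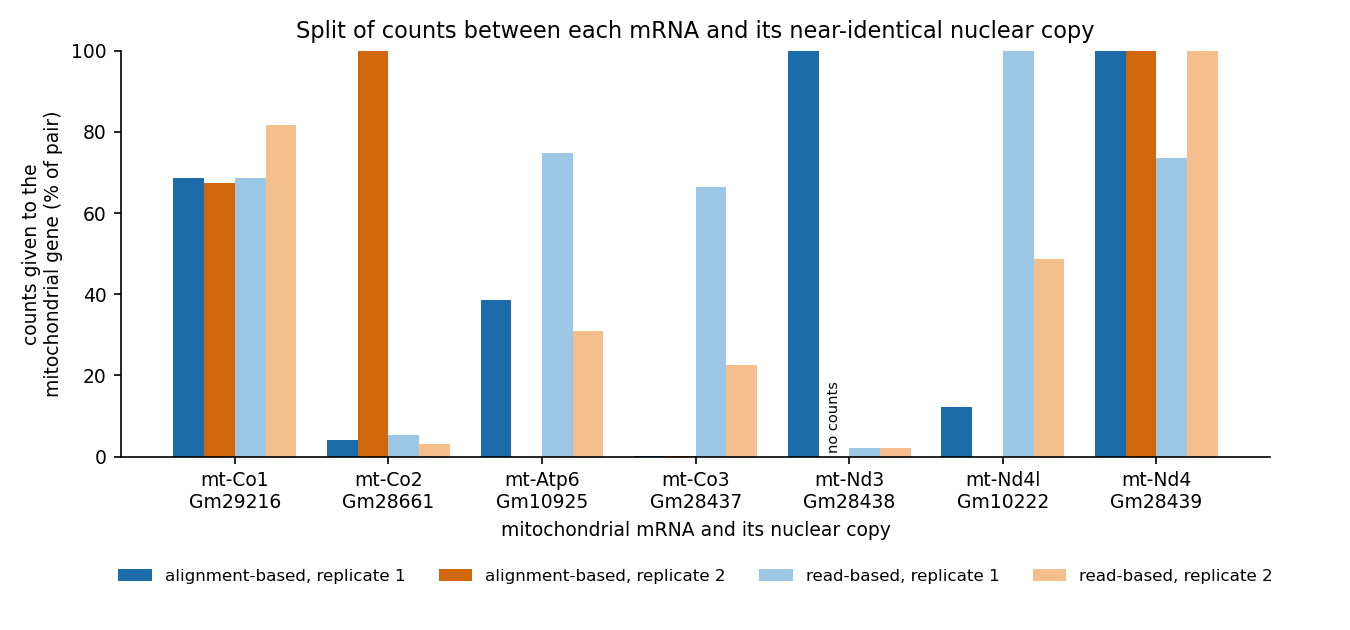
Percent of the counts of each pair that the mitochondrial gene received, for the 7 mRNAs with a near-identical nuclear copy, by table (dark, alignment; light, reads) and replicate (blue, 1; orange, 2). For mt-Co2, mt-Atp6, mt-Co3, mt-Nd3 and mt-Nd4l the bars of a pair disagree, as with 0.0811% to 66.5% for mt-Co3.

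Beside the maximum likelihood TPM the authors give a posterior mean with an interval, and these estimates lie far apart for some of the mRNAs with a near-identical copy. For the 6 mRNAs without an annotated close copy both estimates lay within 1.07-fold of each other (TPM + 1) in either replicate. For the 7 with a copy they differed by 1.01 to 88.6-fold in replicate 1 and 1.06 to 31.5-fold in replicate 2. mt-Co1 and mt-Nd4 were among those with little difference, at 301 and 297 TPM and at 172 and 170 TPM in replicate 1. The posterior mean of mt-Co3 was 110 TPM in replicate 1 (interval 31.5 to 176) against a maximum likelihood of 0.250. For mt-Co2 it was 114 TPM (52.8 to 174) against 18.9, and for mt-Atp6 in replicate 2 it was 26.0 TPM, with an upper bound of 66.7, against 0. The sources used here do not state the level of the interval. Small gaps could also pass its bounds. Among the 6 mRNAs without an annotated close copy, the maximum likelihood TPM lay outside the interval for 2 in replicate 1 and 4 in replicate 2. Among the 7 with a copy it did so for 3 and 4.

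Between the replicates most mitochondrial mRNAs stood lower in replicate 2 by alignment. Of the 12 that reached a mean of 1 TPM, 1 (mt-Atp8) was over 2-fold higher in replicate 2 and 8 over 2-fold lower, by TPM + 1. Among all 8763 genes with that mean, 15.4% were over 2-fold higher and 29.7% over 2-fold lower, so such gaps were common between these libraries. The median log2 ratio of the 13 mRNAs was -1.92, beside -0.28 over all genes. The authors' intervals were apart between replicates for 7 of the 8 mRNAs and rRNAs without an annotated close copy. Of these, 2 were higher in replicate 2 (mt-Nd2, mt-Atp8) and 5 lower. Over all genes the intervals were apart for 31.2% (higher) and 46.0% (lower). These intervals hold within a library only, and with 1 library a side there is no replicate check and no p-value.

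The read-based table gave a different picture. By TPM + 1, 0 of 13 mRNAs were over 2-fold higher and 11 over 2-fold lower in replicate 2, beside 3.25% and 66.3% of 8741 genes, and beside the larger part of TPM that the short entries named above took in replicate 2. By CPM the median ratio of replicate 2 over replicate 1 was 0.697 for the 13 mRNAs and 0.755 over 10268 genes with a mean of 50 counts, whereas by alignment it was 0.213 for the 12 mRNAs with that mean and 0.631 over 9029 genes. By alignment 8 of the 12 had a ratio below the median of all genes and 4 above it (mt-Nd2, mt-Co2, mt-Atp8, mt-Nd6). By reads 8 of 13 were below and 5 above, with single ratios of 0.135 to 3.94. mt-Nd2 was higher in replicate 2 in both tables: 257 CPM in replicate 1 and 438 in replicate 2 by alignment, a ratio of 1.70, and 1181 and 4651 CPM by reads, a ratio of 3.94. Without mt-Nd2 the other mRNAs summed to 2223 CPM in replicate 1 and 471 in replicate 2 by alignment, and to 4878 and 3193 by reads. mt-Atp8 also stood higher in replicate 2, with ratios of 2.48 by alignment and 1.20 by reads, and mt-Cytb lower, with 0.231 and 0.545.

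Adding each copy to its mitochondrial gene removes the split but not the gap between the tables. The pair of mt-Co2 had 253 CPM in replicate 1 and 12.0 in replicate 2 by alignment, a ratio of 0.0473, and 691 and 162 CPM by reads, a ratio of 0.235. This pair was lower in replicate 2 in both tables, although mt-Co2 alone had a ratio of 1.17 by alignment. The mt-Co1 pair had a ratio of 0.0857 by alignment and 0.586 by reads, and the mt-Co3 pair 0.137 and 0.545. For mt-Atp6 and mt-Nd4l the direction depended on the table: the ratios were 0.128 and 0.228 by alignment, and 1.36 and 1.17 by reads.

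**Figure D3:**
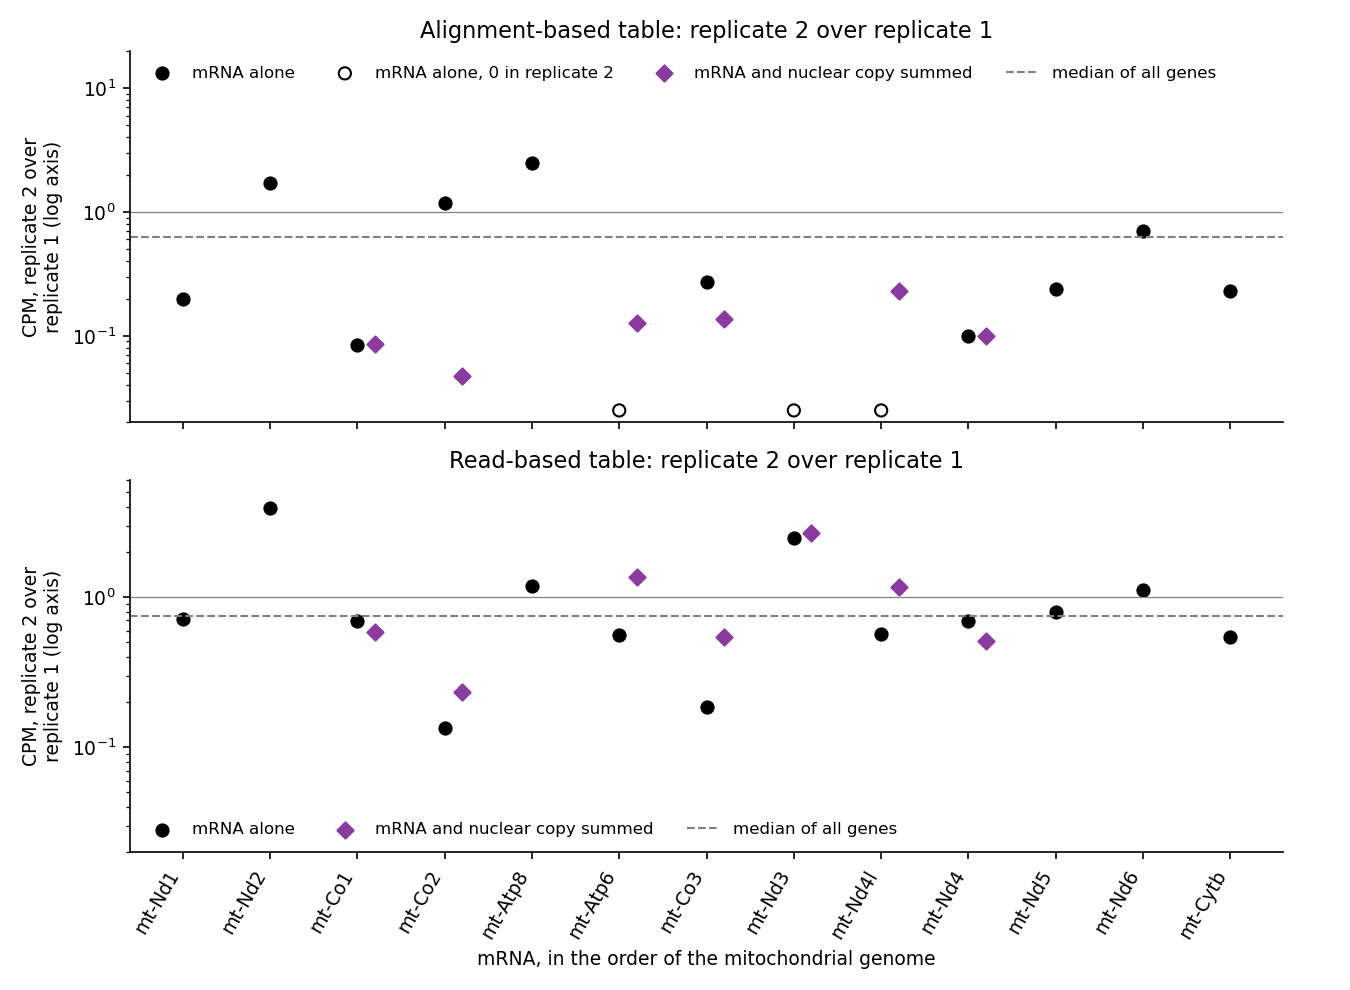
CPM in replicate 2 over replicate 1 for each of the 13 mRNAs (black) and for each mRNA summed with its nuclear copy (purple diamonds), on a log axis, by alignment (top) and by reads (bottom). The dashed line is the median of all genes, 0.631 and 0.755. mt-Nd2 is above 1 in both panels, at 1.70 and 3.94, while most other mRNAs are far below the line by alignment and mt-Co2 and mt-Co3 are by reads.

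The same library gave these genes unequal counts in each table. In replicate 1 the read-based CPM over the alignment-based CPM had a median of 2.40 over the 15 mRNAs and rRNAs, beside 1.03 over 10139 genes; 8 of the 15 were over 2-fold higher by reads and 1 (mt-Nd3) over 2-fold lower, beside 6.86% and 1.37% of all genes. In replicate 2 the median was 9.74, beside 1.12 over 8430 genes; of 14 genes with a mean of 50 counts, 13 were over 2-fold higher and 1 (mt-Co2) lower, beside 21.4% and 1.10% of all genes. The gap was also present for the 8 genes without an annotated close copy. Their ratios ran from 1.11 to 7.17 in replicate 1 and from 3.32 to 31.5 in replicate 2. mt-Rnr2, for example, had 4433 counts by alignment and 11019 by reads in replicate 1, and 45 and 3306 in replicate 2. mt-Nd2 had 18395 and 117181 in replicate 1, and 6181 and 148743 in replicate 2. What else differs between the ways the tables were made was not tested.

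**Figure D4:**
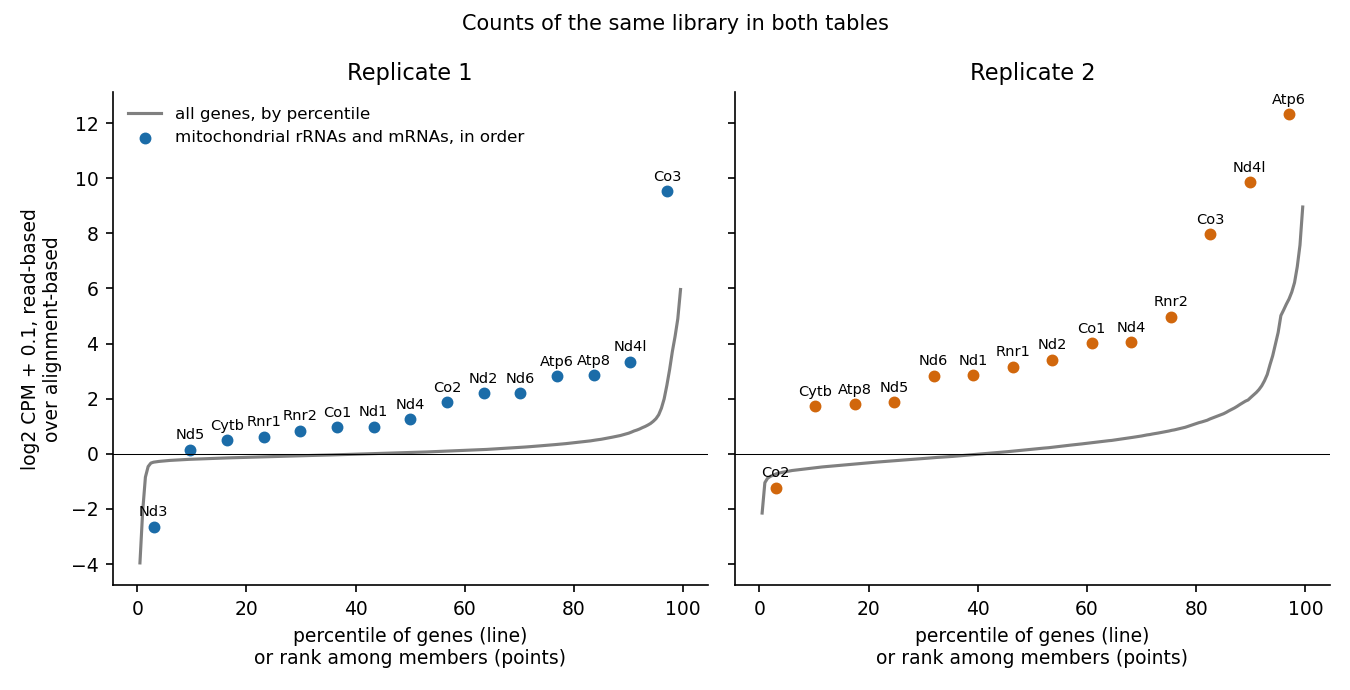
log2 of read-based over alignment-based CPM (each + 0.1) in replicate 1 (left) and replicate 2 (right), for the mitochondrial mRNAs and rRNAs in rank order (points) and for all genes by percentile (grey line). The points lie above the line for most genes, with medians of 2.40 and 9.74 as ratios, beside 1.03 and 1.12 for all genes; mt-Nd3 in replicate 1 and mt-Co2 in replicate 2 are below 0.

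The mitochondrial subunits work with nuclear-encoded partners in the same complexes, and their levels are set side by side in TPM, first by alignment. For complex I the median of the 7 mitochondrial mRNAs was 172 TPM in replicate 1 and 19.6 in replicate 2, and that of 7 nuclear core subunits was 99.2 and 25.0. Those 7 spanned 53.6 to 262 TPM in replicate 1 and 9.87 to 192 in replicate 2, and Ndufs7, a subunit of the iron-sulfur chain, had the highest mean, with 144 and 192. For complex III, mt-Cytb had 629 and 165 TPM, and the median of 4 nuclear subunits was 153 and 152, with Uqcrc1, a core protein, highest at 281 and 288. The 3 mitochondrial subunits of complex IV had a median of 18.9 and 24.7 TPM, which rests on mt-Co2. The median of 7 nuclear subunits was 194 and 48.9, and Cox5b was highest, with 1966 and 1751. This mitochondrial median depends on the split with the nuclear copies. In replicate 1 mt-Co2 and mt-Co3 received 4.03% and 0.0811% of their pairs' counts, and the copies Gm28661 and Gm28437 had 453 and 309 TPM. In replicate 2 those copies had 0 and 47.3 TPM. The complex IV medians by alignment therefore do not rank both kinds of subunit. For ATP synthase the mitochondrial pair had a median of 437 and 659 TPM, and 9 nuclear subunits 162 and 106, of which Atp5b, the catalytic beta subunit, had the highest mean, with 1354 and 1145; Atp5d had 1171 in replicate 2. Atp5o was at 0 in both libraries, by alignment and by reads, and is included in the median of the 9. Whether another gene entry carries this symbol was not tested, so the 0 is not read as absence. By reads the mitochondrial median was above the nuclear one in 7 of these 8 comparisons. For complex I it was 327 against 81.4 TPM in replicate 1 and 87.8 against 13.1 in replicate 2. For complex III the values were 700 against 108 and 147 against 30.9, and for ATP synthase 1890 against 103 and 570 against 25.3. Complex IV had 233 against 140 in replicate 1 and 16.4 against 20.7 in replicate 2. These complex IV medians by reads rest on mt-Co3, which received 66.5% and 22.6% of its pair's counts. Its copy Gm28437 had 118 and 56.2 TPM by reads. The read-based complex IV medians therefore do not rank both kinds of subunit either.

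Both kinds of subunit were often lower in replicate 2. By alignment 6 of the 7 nuclear complex I subunits were over 2-fold lower there by TPM + 1, as were 0 of 4 for complex III, 3 of 7 for complex IV and 4 of the 8 for ATP synthase with a mean of 1 TPM, beside the 29.7% of all genes given above. Over 2-fold higher were 0 of them, beside 15.4% of all genes. By reads, complex I mRNAs made up 36.1% of mitochondrial mRNA TPM in replicate 1 and 58.7% in replicate 2. Among these mRNAs only mt-Nd2 had a higher read-based TPM in replicate 2, at 1034 and 1565. By alignment the complex I share went the other way, with 40.4% and 32.2%. ATP synthase mRNAs made up 46.2% and 32.9% by reads, complex IV 9.17% and 4.18%, and complex III 8.55% and 4.24%. By alignment the shares were 28.6% and 58.2% for ATP synthase, 10.5% and 2.37% for complex IV, and 20.6% and 7.28% for complex III. All these shares leave out the nuclear copies and depend on the split with them. By reads the copies of mt-Co2 and mt-Co1, Gm28661 and Gm29216, had 943 and 826 TPM in replicate 1.

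**Figure D5:**
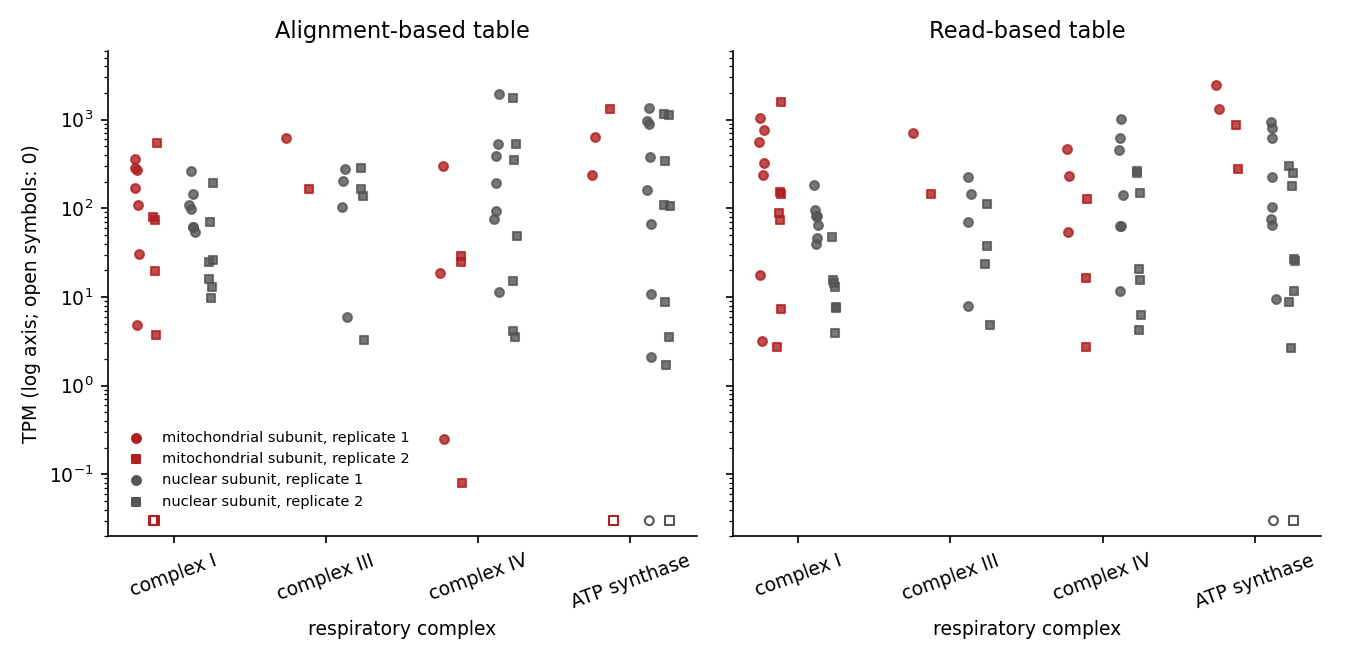
TPM on a log axis of the mitochondrial (red) and nuclear (grey) subunits of each respiratory complex in replicate 1 (circles) and replicate 2 (squares), by alignment (left) and by reads (right); each point is 1 gene and open symbols are at 0. By alignment the complex I medians in replicate 1 are 172 TPM (mitochondrial) and 99.2 TPM (nuclear), and the highest nuclear subunit of complex IV, Cox5b, exceeds all 3 mitochondrial ones.

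The nuclear genes that keep, transcribe and process mitochondrial DNA and RNA were mostly present at low levels by alignment. Of 9 genes for DNA upkeep, 5 reached 1 TPM in each replicate. Polg, the catalytic subunit of the mitochondrial DNA polymerase, had 129 and 293 TPM, followed by the single-strand binding protein Ssbp1 (5.62 and 8.12) and Rnaseh1 (7.29 and 0.980). Tfam, which packages the DNA and starts transcription, had 2.27 and 1.65 TPM. Polg2, Mgme1 and Top1mt had means below 1 TPM. Of 9 genes for transcription 4 were detected in both: Mrpl12, a protein of the mitochondrial ribosome, had 93.7 and 42.2 TPM, the RNA polymerase Polrmt 10.2 and 11.0, and Mterf3 14.0 and 1.39. Tefm, Mterf1a, Mterf1b and Mterf2 had means below 1 TPM.

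Of 28 genes for RNA processing and decay found in the table, 18 were detected in both. Fastk, an RNA-binding protein of the organelle, had 250 and 269 TPM, the exonuclease Rexo2 350 and 66.9, and the RNA granule protein Grsf1 40.5 and 131. Lrpprc, which with Slirp stabilizes the mRNAs, had 8.07 and 6.41 TPM, and Slirp 2.58 and 0.03. The mitochondrial poly(A) polymerase Mtpap had 2.26 and 0.250 TPM, on 359 and 6 counts. 1110008L16Rik, Fastkd1, Fastkd2, Fastkd3, Fastkd5, Tfb1m and Nsun4 had means below 1 TPM. Of the 21 with a mean of 1 TPM or more, 2 were over 2-fold higher and 6 over 2-fold lower in replicate 2, beside the 15.4% and 29.7% of all genes.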

How the data were processed

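Polyadenylated RNA of 2 G1E-ER4 libraries was analysed from the tables the authors deposited, made on assembly mm10 per the labels (aligner and quantifier: not given in the sources used here). Expected counts and estimated counts, as the authors deposited them, are raw fragments assigned to a gene or transcript and need not be whole. The TPM in the deposited tables, per the file headers, are a maximum likelihood and a posterior mean estimate, the second with the authors' lower and upper bounds (a signal in TPM), beside the effective length. The gene table for M21 made from an alignment was the main one; the read-based transcript table was summed per gene, and the M4 table was an alternative. Spike-in and tRNA entries that name no mouse gene were left out.

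The members, gene lists and comparisons were chosen with earlier results of these data known. With 1 group no test was run, and genes over 2-fold apart (pseudocount 1, mean of 1 TPM) are a description. CPM compared tables at a mean of 50 counts. Nuclear copies were M21 transcripts that blastn 2.17.0 matched over at least 50% of their length at 90% identity; those at 99% were called near-identical. Of 7 copies listed by name, Gm29215 had no match, and Gm10222 came from the search. Named were all mRNAs and rRNAs, tRNAs at 1 TPM, and of each nuclear list the 3 highest means and those below 1 TPM; Tfam, Lrpprc, Slirp and Mtpap were added for their roles after their values were seen. In a list of 29 processing entries 1 symbol, Prorp, is the newer name of 1110008L16Rik. Coordinates and sequences are from GENCODE M21. Alternatives included edgeR 4.0.16 TMM and DESeq2 1.42.0 size factors on rounded expected counts (R 4.3.3). The other steps ran in Python 3.11.15 with scipy 1.17.1, pandas 2.3.3 and numpy 2.4.6, and plots in matplotlib 3.10.9.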

Additional observations from a re-analysis of the deposited data

How the results depend on the processing

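The share of TPM, 0.272%, was 0.598% in the read-based table, 0.176% as a share of expected counts and 0.417% with the nuclear copies added; chosen after seeing the data, it was 0.713% of read-based counts and 0.789% of read-based TPM with copies. It ran from 0.228 to 0.316% with 1 replicate left out, genes detected from 11 to 14 and the ratio of the rRNAs from 1.45 to 3.48. Detected genes numbered 20 by reads. The ratio of mt-Rnr1 to mt-Rnr2 was 0.625 from read-based counts. The 9 mRNAs over 2-fold apart were 4 in the read-based table after scaling TPM over nuclear protein-coding genes (2 higher and 2 lower, beside 36% of all genes in either direction), a setting chosen after seeing the data. The median log2 ratio, -1.92, was -2.09 in the M4 table, -2.23 from posterior means, -1.75 with TMM and -1.67 with DESeq2 size factors. It was -2.16 with copies added, -1.66 with copies added by reads and -0.24 by reads over nuclear protein-coding genes. It was negative under every setting tried. The median over all genes was also negative in most settings, at -0.28 in the main one and -1.37 by reads, with or without copies. That median was 0.32 from posterior means and 0.01 by reads over nuclear protein-coding genes. The sign alone therefore does not set the mRNAs apart. Detected genes numbered 10 in the M4 table and 8 at 10 TPM. The mRNAs over 2-fold apart were 12 in the M4 table (3 higher), 11 by reads and 9 to 11 under the remaining settings. Such gaps were common among all genes too, at 44.0% in the M4 table and 69.6% by reads. Under the remaining settings the share was 69.6% with copies added by reads, 7.54% without a filter and 42.4 to 51.6% otherwise. No paired analysis was possible because there is 1 group. Replicate 2 has 5.06 times fewer alignment-based counts, which limits its low genes.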
